A study of Mus musculus with 6 samples.

Results

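The genes described here make, break down and release sphingosine-1-phosphate (S1P), a signalling lipid. They were chosen by symbol: the sphingosine kinases Sphk1 and Sphk2, the ceramidases Asah1, Asah2, Acer2 and Acer3, the S1P lyase Sgpl1, the S1P phosphatases Sgpp1 and Sgpp2, and the exporter Spns2. All 10 were found among the 24411 genes of the count tables, and 9 had enough reads to be tested, as did 10124 genes in all. The libraries were made from primary microglia, the macrophages that live in the brain. The cells were shaken off mixed glial cultures grown from pooled brains (12 animals) of ICR mice aged 3 days, and more than 92% carried CD11b by flow cytometry, per the labels' protocols. One group of 3 libraries received FTY720 at 1 µM for 4 h. The other group of 3 libraries received FTY720 at 1 µM together with lipopolysaccharide (LPS) at 10 ng/ml for 4 h. FTY720 (fingolimod) is a sphingosine analogue that was present in every library. No library without it was analysed here, so each comparison shows LPS on top of FTY720. Each group is described as a biological triplicate. The labels do not tie the RNA samples to separate cultures, so the p-values measure the spread between these RNA samples, which may be technical.

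Ceramidases cut ceramide into a fatty acid and sphingosine, and the kinases phosphorylate sphingosine to S1P. S1P is then either returned to sphingosine by phosphatases, cut irreversibly by the lyase Sgpl1, or carried out of the cell by transporters such as Spns2, where it acts on G protein-coupled receptors of immune and brain cells. FTY720 enters the same scheme, because it is phosphorylated mainly by Sphk2 and its phosphate binds S1P receptors. LPS, a bacterial cell wall component, is sensed by microglia through Toll-like receptor 4.

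Each library held between 2431775 and 3454647 sense-strand gene reads. Between 28.8% and 59.0% of them fell on Rn45s (the precursor of ribosomal RNA), Lars2 and Mir6236, where rRNA-like reads pile up, and 1340915 to 2116218 reads remained for other genes. FTY720 replicate 3 had the lowest rRNA-like share and stood apart from the other libraries on the second principal component (-22.4, against 6.49 and 15.2 for the other FTY720 libraries). LPS replicate 3, with the highest rRNA-like share of its group (44.9%), also lay apart from its group there (16.0, against -7.99 and -7.30). The LPS response was present: Tnf had 269 reads over the 3 FTY720 libraries and 16296 with LPS, and Il1b 187 and 16093. Levels are given as CPM, the reads of a gene scaled to the gene reads of its library with TMM factors. Among microglia markers, Itgam, which encodes CD11b, stood at 106 ± 11.5 CPM with FTY720 and 185 ± 33.0 CPM with LPS (SD, n = 3), whereas Siglech had 1 read in all 6 libraries together, Tmem119 had 19 and Sall1 had 47. Over all genes tested 23.3% were called higher and 22.7% lower, the shares beside which the marker counts here are to be read. Of 9 tested microglia markers 8 rose, and the list's summed level went from 1966 to 2126 CPM with FTY720 to 3067 to 3532 CPM with LPS. Aif1, among those that rose, had enough reads to be tested only through the LPS libraries (28 reads against 45 in all). With libraries scaled to total gene reads alone 2 of the 9 rose. Markers of other brain cells were also detected. The oligodendrocyte-lineage list summed to 268 to 293 CPM with FTY720 and 142 to 163 CPM with LPS, with 5 of 6 tested markers lower, and the neuron list to 188 to 251 and 107 to 117 CPM, with 3 of 4 lower. The astrocyte list summed to 94.8 to 114 and 107 to 146 CPM, with 2 of 7 tested markers higher and 1 lower. Of the endothelial markers only Cdh5 had enough reads to be tested, and only through the LPS libraries (26 reads against 56 in all), so that its higher level there is no measure of the list. None of 6 tested fibroblast and mural markers passed (91.3 to 186 against 144 to 214 CPM summed). In such bulk RNA, fewer cells of a type and less RNA per cell cannot be told apart, and the part of these shifts in the changes below was not tested.

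With LPS, the sphingosine kinase with more reads in these bulk libraries was Sphk1 instead of Sphk2. Sphk1 rose 6.36-fold and Sphk2 fell 2.32-fold, so that Sphk1 went from a minor to the larger part of kinase reads, while the summed level of the pair did not separate the groups. The ceramidase Acer2 rose most, 11.6-fold. The lyase Sgpl1, the most abundant of these genes, and the ceramidases Acer3 and Asah1 rose by less than 2-fold each. Sgpp1, Spns2 and Asah2 did not pass the test, and Sgpp2 was hardly detected. By edgeR's quasi-likelihood F test, at an adjusted p under 0.05, 5 of the 9 members tested were higher and 1 was lower, where 46.0% of all genes tested were called (23.3% higher and 22.7% lower). The groups did not overlap in CPM for 7 of the 9, as for 54.0% of all genes tested. Sphk1 and Acer2 passed the low-count filter only through the LPS libraries, so the members' counts are a description and not evidence about the group. The median log2 fold change of the 9 was 0.67, beside -0.04 over all genes tested.

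**Figure D1:**
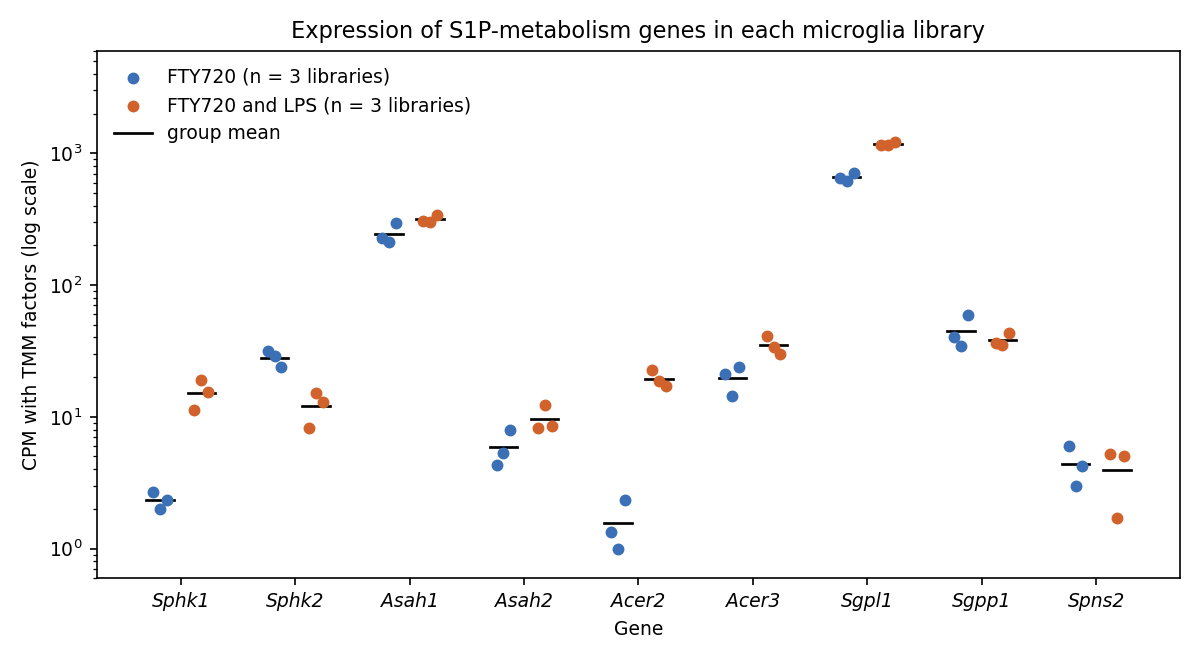
Expression of 9 genes of S1P metabolism in each library, as CPM scaled with TMM factors on a log axis; points are libraries (blue, FTY720; orange, FTY720 and LPS; 3 each) and black lines are group means. Sphk1 (2.00 to 2.67 CPM against 11.2 to 19.0 CPM) and Acer2 (1.00 to 2.35 against 17 to 22.8 CPM) are higher in every LPS library, Sphk2 is lower in every LPS library, and the groups overlap for Sgpp1 and Spns2.

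The kinases were measured first. Sphk1 lies on chromosome 11 (116530925 to 116536674, plus strand, GRCm38) and encodes the inducible, mostly cytosolic sphingosine kinase. Its reads numbered 8, 6 and 10 in the FTY720 libraries and 30, 45 and 31 in the LPS libraries, or 2.67, 2.00 and 2.35 CPM against 11.2, 19.0 and 15.5 CPM. Every LPS library was above every FTY720 library, by a wide gap. The log2 fold change was 2.67 ± 0.32 (SE, n = 3 per group, edgeR adjusted p = 4.24e-07), higher than that of 98.3% of all genes tested. With 24 reads in the FTY720 group the size of the fold is imprecise, although the call held in all 17 alternative settings (2.23 to 2.90).

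Sphk2 lies on chromosome 7 (45709467 to 45718002, minus strand) and encodes the kinase found in nucleus and mitochondria as well as cytosol. It had 95, 86 and 102 reads with FTY720 and 22, 36 and 26 with LPS, or 31.7, 28.7 and 24.0 CPM against 8.21, 15.2 and 13.0 CPM. Each LPS library lay below each FTY720 library. The log2 fold change was -1.22 ± 0.22 (SE, n = 3 per group, edgeR adjusted p = 0.000108), and 5.91% of all genes tested had a lower value. The call held in all 17 alternatives (-1.66 to -0.95). The gene overlaps Dbp and Rpl18 on the opposite strand, and 40 reads over the 6 libraries lay on that strand against 367 on the sense strand.

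Within a library the kinases can be set against each other without any scaling between libraries. Sphk1 supplied 7.77%, 6.52% and 8.93% of the kinase reads with FTY720 and 57.7%, 55.6% and 54.4% with LPS. All 3 LPS libraries thus had more Sphk1 than Sphk2 reads, and none of the FTY720 libraries did (0 of 3). The mean share was 7.74% ± 1.2 against 55.9% ± 1.68 (SD, n = 3), a difference of 48.1 percentage points (exact two-sided permutation p = 0.1, the smallest that 3 against 3 libraries allow). Over the reads of each group together the share was 7.82% (95% Wilson interval 5.31 to 11.4) and 55.8% (48.7 to 62.7), intervals that cover counting error only. The level of both kinases summed was 34.4, 30.7 and 26.4 CPM with FTY720 and 19.4, 34.3 and 28.5 CPM with LPS. These sums overlapped between the groups (30.5 ± 4.01 against 27.4 ± 7.5 CPM, SD, n = 3, exact permutation p = 0.6).

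**Figure D2:**
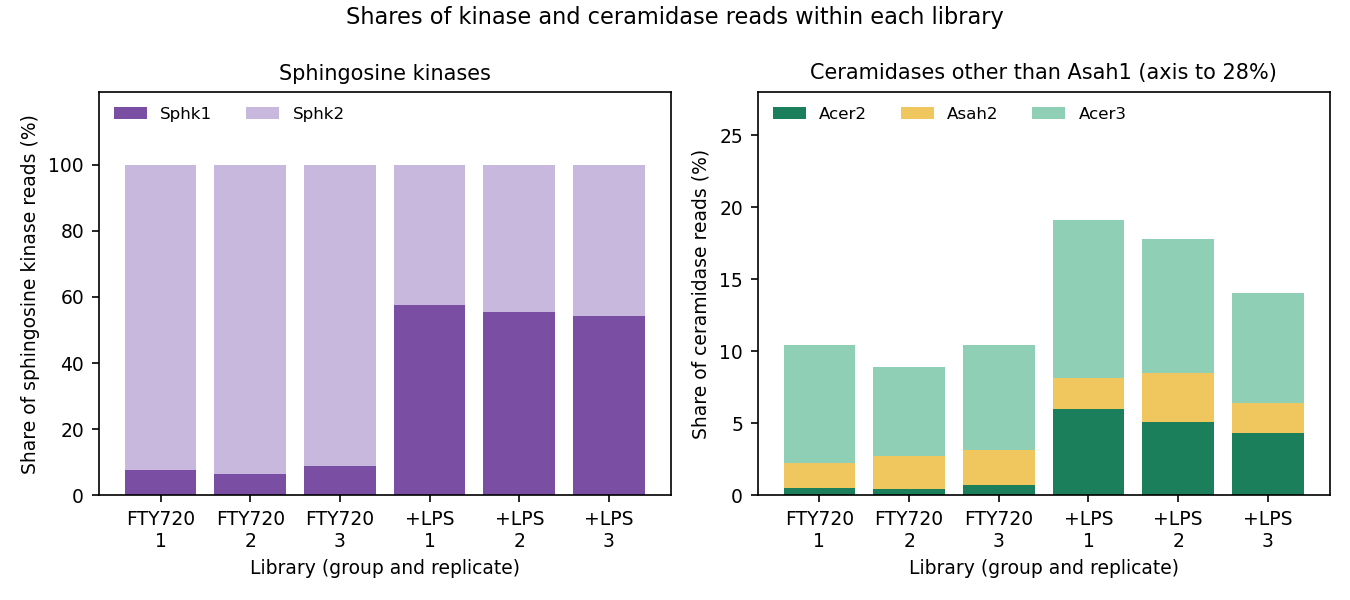
Left, share of sphingosine kinase reads (percent) from Sphk1 and Sphk2 in each library; right, share of ceramidase reads from Acer2, Asah2 and Acer3, the remainder to 100% being Asah1; +LPS marks the libraries with FTY720 and LPS. Sphk1 supplies 6.52% to 8.93% of kinase reads with FTY720 and 54.4% to 57.7% with LPS, and Acer2 0.431% to 0.713% and 4.29% to 6.01% of ceramidase reads.

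Of the ceramidases, which supply sphingosine to the kinases, Acer2 changed most. Acer2 lies on chromosome 4 (86874396 to 86934822, plus strand) and encodes the alkaline ceramidase of the Golgi. It had 4, 3 and 10 reads with FTY720 and 61, 44 and 34 with LPS, or 1.33, 1.00 and 2.35 CPM against 22.8, 18.6 and 17 CPM. The lowest LPS library was far above the highest FTY720 library. The log2 fold change was 3.54 ± 0.32 (SE, n = 3 per group, edgeR adjusted p = 4.81e-09), higher than that of 99.1% of all genes tested, and the call held in all 17 alternatives (3.10 to 4.02). The fold rests on 17 reads in the FTY720 group, of which 10 came from replicate 3.

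Acer3, on chromosome 7 (98206389 to 98321208, minus strand), encodes another alkaline ceramidase, found in the endoplasmic reticulum and Golgi. It stood at 21, 14.4 and 24.0 CPM with FTY720 and 41.4, 33.8 and 30.0 CPM with LPS, without overlap. This gave a log2 fold change of 0.82 ± 0.19 (SE, n = 3 per group, edgeR adjusted p = 0.00158). The call ended when libraries were scaled to total gene reads alone (0.47, adjusted p = 0.218) or to total gene reads without the rRNA-like genes (0.38, 0.103).

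Asah1, on chromosome 8 (41340197 to 41374773, minus strand), encodes the acid ceramidase of the lysosome and was by far the most abundant ceramidase. It stood at 229, 212 and 296 CPM with FTY720 and 306, 299 and 341 CPM with LPS. The groups lay next to each other, with FTY720 replicate 3 close to LPS replicate 2. The log2 fold change was 0.36 ± 0.12 (SE, n = 3 per group, edgeR adjusted p = 0.0199). This call was not stable: it ended without FTY720 replicate 1 (0.31, adjusted p = 0.0968), FTY720 replicate 2 (0.29, 0.0605) or LPS replicate 3 (0.33, 0.0657), and with the trend of fold change on mean expression removed Asah1 was called lower (-0.40, 0.00308). Of the 239 genes within 0.5 log2 CPM of its mean level 75.3% were called higher, with a median log2 fold change of 0.63.

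Asah2, on chromosome 19 (31982597 to 32108211, minus strand), encodes neutral ceramidase, which sits at the plasma membrane. It had 13, 16 and 34 reads with FTY720 and 22, 29 and 17 with LPS, or 4.34, 5.34 and 8.0 CPM against 8.21, 12.3 and 8.51 CPM. The groups met without overlapping, and the log2 fold change of 0.67 ± 0.30 did not pass the test (SE, n = 3 per group, edgeR adjusted p = 0.0748). Without FTY720 replicate 3, its highest FTY720 library, Asah2 passed (0.99, adjusted p = 0.0127).

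Within the ceramidase reads the share of Acer2 was higher with LPS and that of Asah1 lower. Acer2 supplied 0.522%, 0.431% and 0.713% of them with FTY720 and 6.01%, 5.12% and 4.29% with LPS (0.555% ± 0.144 against 5.14% ± 0.859, SD, n = 3, exact permutation p = 0.1). Asah1 supplied 89.6%, 91.1% and 89.6% with FTY720 and 80.9%, 82.2% and 86.0% with LPS, so its share was lower in every LPS library while its CPM was higher (exact permutation p = 0.1). Asah1 remained the main ceramidase transcript in all 6 libraries. The shares of Acer3 (7.23% ± 1.02 against 9.27% ± 1.68, exact permutation p = 0.2) and Asah2 (2.14% ± 0.389 against 2.56% ± 0.704, exact permutation p = 0.6; SD, n = 3) overlapped between the groups. All 4 ceramidases summed to 256, 232 and 330 CPM with FTY720 and 379, 363 and 396 CPM with LPS.

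The stretch before the start of transcription is shown for the most changed ceramidase and the kinase pair, since these genes moved most. RefSeq windows of 250 bases before to 50 bases after each start (GRCm38.p6) were held for 9 of the 10 genes, Asah1 being the exception, with 15 windows in all. Both strands were searched for GGGA and CC with any 4 bases between them (a κB-like pattern), TGANTCA (AP-1-like), TGACGTCA (the cyclic AMP response element, CRE) and GAAA and GAAA with any 2 bases between them (interferon response-like). Printed below are the bases in no annotated exon, 5′ to 3′ on the gene's strand, with κB-like matches in capitals, and for Sphk1 the bases around its AP-1-like match, also in capitals. The stretches are Acer2, chr4:86874164-86874395, plus strand; Sphk2, chr7:45715208-45715456, minus strand, before the inner of its 2 starts; and Sphk1, chr11:116531777-116531803, plus strand, in an exon of a Sphk1 transcript and 50 bases before the start at 116531837.
Acer2: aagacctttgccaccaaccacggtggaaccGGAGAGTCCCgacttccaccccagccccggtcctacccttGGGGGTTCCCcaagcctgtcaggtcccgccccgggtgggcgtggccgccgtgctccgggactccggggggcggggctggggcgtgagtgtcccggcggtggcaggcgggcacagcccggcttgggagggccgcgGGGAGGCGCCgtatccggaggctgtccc
Sphk2: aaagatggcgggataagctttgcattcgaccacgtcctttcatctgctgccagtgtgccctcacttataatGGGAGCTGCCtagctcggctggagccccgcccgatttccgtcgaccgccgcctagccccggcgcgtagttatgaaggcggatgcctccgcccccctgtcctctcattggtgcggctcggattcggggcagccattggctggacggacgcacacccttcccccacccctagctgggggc
Sphk1: agcgtgtcgcTGAGTCAccttctcgga

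Acer2 held 3 κB-like matches, 220, 180 and 46 bases before its start, the first and second of them on the opposite strand. Such a match is common: 20.7% of 32817 windows of this length held at least 1, and so did Sphk2, which fell, and 1 of the 2 windows of Acer3. The AP-1-like pattern was in 7.81% of all windows, and here in windows of Sphk1, Asah2 and Acer3. For Sphk1 it was in 2 of 5 windows, which overlap and share the same match. The Sphk1 stretches outside annotated exons held no match of any pattern and are not printed. The CRE was in 1.79% of all windows and in 1 window of Sphk2, and the interferon response-like pattern in 3.43% of all and in none of the 15. These are matches of letters only, and which start the microglia used was not measured.

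Among Sgpl1, Sgpp1, Sgpp2 and Spns2, the lyase Sgpl1 passed the test and rose, Sgpp1 and Spns2 did not pass, and Sgpp2 was not tested. Sgpl1, on chromosome 10 (61098642 to 61147703, minus strand), encodes the lyase of the endoplasmic reticulum that ends the pathway. It stood at 645, 618 and 707 CPM with FTY720 and at 1149, 1150 and 1212 CPM with LPS. Within each group the libraries lay close together, and the groups were well apart. The log2 fold change was 0.83 ± 0.10 (SE, n = 3 per group, edgeR adjusted p = 4.49e-07). Sgpl1 was more abundant than 99.6% of the genes tested, and the 29 genes within 0.5 log2 CPM of it had a median log2 fold change of 0.78. With the trend on mean expression removed Sgpl1 was called lower (-0.19, adjusted p = 0.0460), and with total gene reads alone it did not pass (0.49, 0.187).

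Sgpp1, on chromosome 12 (75714249 to 75735729, minus strand), encodes the main S1P phosphatase of the endoplasmic reticulum. It stood at 40.0, 34.4 and 59.1 CPM with FTY720 and 36.2, 35.1 and 43.6 CPM with LPS. The ranges overlapped, and FTY720 replicate 3 was the highest library. Its log2 fold change was -0.24 ± 0.18 (SE, n = 3 per group, edgeR adjusted p = 0.283), and 0.03 without that library. With total gene reads without the rRNA-like genes it passed as lower (-0.68, adjusted p = 0.00236), a setting under which the median of all genes tested was -0.48.

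Sgpp2, on chromosome 1 (78310345 to 78420289, plus strand), encodes the second S1P phosphatase. It had 2 sense reads in FTY720 replicate 3 and 0 in the other 5 libraries, where a count of 0 allows up to 3 reads, or 0.868 to 1.23 CPM of the gene reads of a library. More reads, 11 in all, lay on its opposite strand, where Farsb overlaps it. Sgpp2 was not tested, and at this depth no difference was detectable.

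Spns2, on chromosome 11 (72451638 to 72489904, minus strand), encodes the exporter that releases S1P from endothelial and other cells. It had 18, 9 and 18 reads with FTY720 and 14, 4 and 10 with LPS, or 6.01, 3.00 and 4.24 CPM against 5.22, 1.69 and 5.01 CPM. The groups overlapped almost fully, and the log2 fold change of -0.15 ± 0.40 did not pass the test (SE, n = 3 per group, edgeR adjusted p = 0.791). Its sign turned in 4 of 17 alternatives (-0.58 to 0.23), so a change of moderate size in either direction was not detectable at this depth. Mybbp1a overlaps Spns2 on the opposite strand, where 14 reads lay against 73 on the sense strand.

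Removal was also set against synthesis within each library. For each read of Sphk1 and Sphk2 together there were 19.9, 21.2 and 29.0 reads of Sgpl1 and Sgpp1 with FTY720, and 61.1, 34.6 and 44.0 with LPS. The lowest LPS library was above the highest FTY720 library. The mean log2 ratio was 4.53 ± 0.29 against 5.50 ± 0.41 (SD, n = 3), a difference of 0.97 (exact two-sided permutation p = 0.1). Genes within 0.5 log2 CPM of Sgpl1 had a median log2 fold change of 0.78, and those at the levels of Sphk1 and Sphk2 had medians of -0.35 and -0.10, so a ratio of abundant to scarce transcripts was higher with LPS for typical genes of these levels too. Reads of Sgpl1 made up nearly all of the numerator, and the ratio compares transcripts, not enzyme activity.

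**Figure D3:**
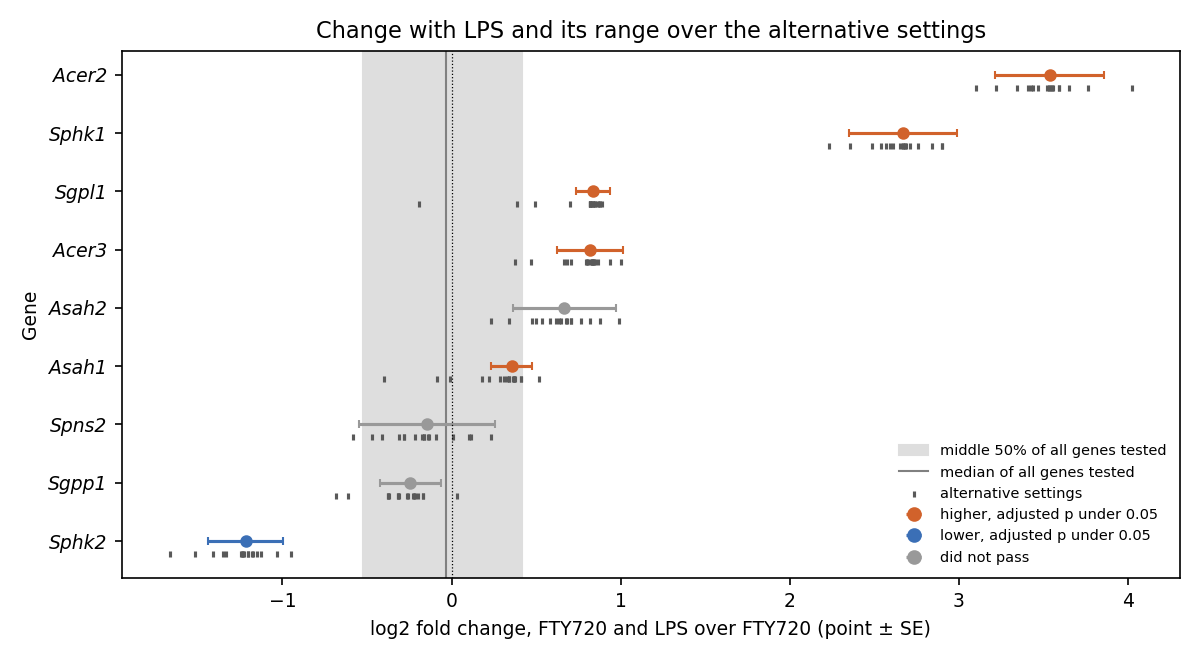
Log2 fold change with LPS for the 9 tested genes (points, bars ± SE, 3 libraries per group), coloured by the edgeR call, with tick marks below each point for the 17 alternative settings, the grey band for the middle 50% of all genes tested and a grey line for their median of -0.04. The ticks of Acer2, Sphk1 and Sphk2 stay on their side of 0, whereas those of Sgpl1 and Asah1 reach below it.

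Scaling between libraries moved all genes together. The median log2 fold change of all genes tested was -0.04 with TMM factors, -0.17 with upper-quartile factors, -0.35 with total gene reads alone and -0.48 with total gene reads without the rRNA-like genes. Relative to that median, across these scalings and the RLE factors, Sphk1 stood at 2.71 with each and Acer2 at 3.57 to 3.58. Sgpl1 stood at 0.85 to 0.87, Acer3 at 0.82 to 0.86, Asah1 at 0.35 to 0.39 and Sphk2 at -1.19 to -1.16. Such scalings shift all genes by nearly the same amount, so these relative values could hardly move and are no test of the calls. Removing the expression trend is not such a scaling. It gave log2 fold changes of -0.19 for Sgpl1 and -0.40 for Asah1, beside a median of -0.08.

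Levels of different genes were compared per kilobase of transcript, using each gene's longest protein-coding GENCODE M21 transcript, which may not be the one expressed. With FTY720, Sgpl1 led at 160 ± 11.1 CPM per kb (SD, n = 3), followed by Asah1 at 88.5 ± 16.0, Sgpp1 at 13.4 ± 3.89 and Sphk2 at 7.93 ± 1.09, each above the next in all libraries. Acer3 at 1.75 ± 0.436, Spns2 at 1.36 ± 0.466, Sphk1 at 0.881 ± 0.125 and Asah2 at 0.836 ± 0.269 CPM per kb followed, and neighbours among these overlapped in their ranges. Acer2 at 0.371 ± 0.167 was below all of those, and Sgpp2 was last. With LPS the first 3 genes kept their order, at 285 ± 8.76, 114 ± 8.12 and 11.5 ± 1.38 CPM per kb (SD, n = 3). Then came Sphk1 at 5.73 ± 1.48, Acer2 at 4.62 ± 0.702, Sphk2 at 3.42 ± 1.01 and Acer3 at 3.09 ± 0.510, where each overlapped the next. Per kilobase Sphk1 thus stood above Sphk2 in each LPS library and below it in each FTY720 library, and Acer2 moved from below Asah2 to above it. Asah2 at 1.37 ± 0.321 and Spns2 at 1.23 ± 0.610 CPM per kb overlapped each other.

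The genes around this set in the sphingolipid pathway moved in several directions. All 3 tested S1P receptors were called lower, 1 of them in only part of the settings, where 22.7% of all genes tested were called lower. S1pr2 (253 reads with FTY720 and 27 with LPS) and S1pr3 (72 and 25) passed the low-count filter only through the FTY720 libraries. The count of receptors is therefore a description and not evidence about the group. The largest changes were those of S1pr1 (100 ± 9.85 CPM with FTY720 and 13.2 ± 2.12 with LPS, SD, n = 3) and S1pr2 (24.9 ± 3.62 and 3.86 ± 1.09 CPM), the receptors through which S1P guides cell movement. S1pr1 is also a target of phosphorylated FTY720. The log2 fold changes of S1pr1 and S1pr2 were -2.91 ± 0.17 and -2.68 ± 0.27 (SE, n = 3 per group, edgeR adjusted p = 9.72e-13 and 2.17e-08). S1pr3, named after its values were seen, stood at -0.97 ± 0.36 (adjusted p = 0.0314), a call that ended in 7 of 17 alternatives, among them DESeq2 (adjusted p = 0.119), the replicate block (0.0561), and the fits without FTY720 replicate 3 (-0.71, 0.139), LPS replicate 2 (-0.92, 0.0983) or LPS replicate 3 (-0.71, 0.151). S1pr4 and S1pr5 had 9 and 5 reads in all and were not tested.

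Of 11 tested genes on the ceramide synthesis list 5 rose and the other 6 did not pass. The list median was 0.36, against -0.04 over all genes tested, of which 23.3% were called higher. The list also holds Ormdl1, Ormdl2 and Ormdl3, negative regulators of that synthesis. Ormdl2, named after its values were seen, is 1 of the 5 (0.58 ± 0.21, SE, edgeR adjusted p = 0.0259). Its call ended in 8 of 17 alternatives. With total gene reads alone 1 of the 11 was called higher, with total gene reads without the rRNA-like genes 3 higher against 3 lower. Removing the expression trend left 4 higher and put 1 lower. Cers6, a ceramide synthase that prefers the palmitoyl chain, rose from 25.2 ± 3.63 to 92.2 ± 9.13 CPM (SD, n = 3), a log2 fold change of 1.88 ± 0.15 (SE, edgeR adjusted p = 3.86e-10). Kdsr, which reduces the first sphingoid intermediate, rose by 1.06 ± 0.19 on the log2 scale, a call that ended with total gene reads alone (0.72, adjusted p = 0.0518).

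Among genes that release ceramide from sphingomyelin or glycolipids, Smpd2, a neutral sphingomyelinase, fell by 1.14 on the log2 scale (SE 0.29, edgeR adjusted p = 0.00298). Psap, the precursor of the saposins that assist sphingolipid breakdown in the lysosome, rose by 0.37 ± 0.10 (adjusted p = 0.00575), a call that depended on the scaling: with the expression trend removed Psap was called lower, at -0.74.

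Genes that use ceramide split, with 3 of 7 higher and 3 lower (median -0.24). Over all genes tested 23.3% were called higher and 22.7% lower (median -0.04). The split depended on the scaling: 1 was higher and 3 lower with total gene reads alone, and 1 higher and 4 lower with total gene reads without the rRNA-like genes. Sgms2, a sphingomyelin synthase of the plasma membrane, rose from 2.26 ± 1.40 to 13.7 ± 2.34 CPM (SD, n = 3). Its log2 fold change was 2.5 ± 0.35 (SE, edgeR adjusted p = 3.55e-06). Sgms2 had 25 reads with FTY720 and 98 with LPS, and it passed the low-count filter only through the LPS libraries. Ugcg, the glucosylceramide synthase, rose by 0.74 ± 0.14, a call that ended with both total-read scalings (down to 0.29). Cerk, ceramide kinase, fell from 96.1 ± 1.57 to 42.7 ± 11.0 CPM (log2 fold change -1.19 ± 0.15, adjusted p = 1.15e-06). Ugt8a, which makes galactosylceramide in oligodendrocytes, stood at -0.93 ± 0.31 (adjusted p = 0.0175), a call that ended in 5 of 17 alternatives, among them without FTY720 replicate 2, LPS replicate 1 or LPS replicate 3. It had 112 reads with FTY720 and 40 with LPS, and passed the low-count filter only through the FTY720 libraries.

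Of 6 further tested genes, for lipid phosphatases, transporters and aldehyde clearance, 2 rose and 1 fell (median -0.30). Beside them, 23.3% of all genes tested were called higher and 22.7% lower (median -0.04). Of the 6, 1 was higher and 2 lower with total gene reads alone, and 1 higher and 4 lower with total gene reads without the rRNA-like genes. Ppap2a, a cell-surface lipid phosphate phosphatase that can act on S1P, rose by 1.43 ± 0.30 (SE, edgeR adjusted p = 0.000414). It had 54 reads with FTY720 and 99 with LPS, and it passed the low-count filter only through the LPS libraries. Abcc1, an ATP-driven exporter, rose by 0.69 ± 0.13, but not with total gene reads alone (0.39) or without the rRNA-like genes in the total (0.24). Abca1, the cholesterol exporter, fell by 1.5 on the log2 scale (SE 0.10).

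**Figure D4:**
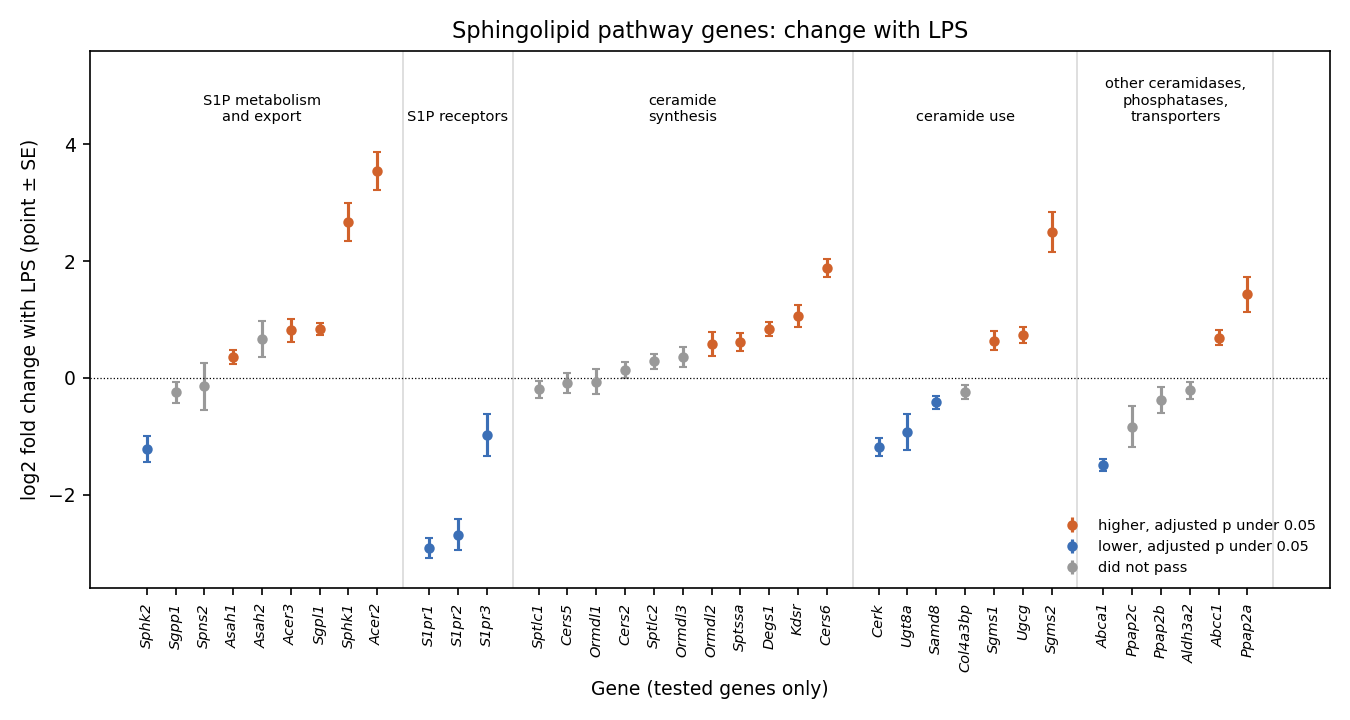
Log2 fold change with LPS (points, bars ± SE, 3 libraries per group) for each tested gene of S1P metabolism and of 4 neighbouring gene lists, ordered within each list and coloured by the edgeR call (orange higher, blue lower, grey did not pass). Acer2, Sphk1, Sgms2 and Cers6 stand highest, and S1pr1 and S1pr2 lowest. Of these, Acer2, Sphk1 and Sgms2 passed the low-count filter only through the LPS libraries, and S1pr2 only through the FTY720 libraries.

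The genes whose profile over the 6 libraries was most like that of Acer2 were Atp2b4, Mnda and Bcl2a1a, with root mean square differences of centred log2 CPM of 0.26, 0.28 and 0.28 among 3477 genes of like abundance. Atp2b4 encodes a calcium pump, and Bcl2a1a encodes a survival protein of a family of near-identical copies, so its reads are uncertain. Genes here were picked for a like profile over the same libraries. The direction and rough size of their changes follow from that choice and are no finding, for Acer2 as for Sphk2 below. Atp2b4, Mnda and Bcl2a1a rose by 3.10 ± 0.26, 3.74 ± 0.25 and 2.91 ± 0.26 on the log2 scale (SE). Like Acer2, they passed the low-count filter only through the LPS libraries. For Sphk2 the closest of 4394 genes were Suox, Acox3 and Xrcc1 (0.14, 0.14 and 0.15), with log2 fold changes of -1.35 ± 0.26, -1.02 ± 0.19 and -1.26 ± 0.27.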

How the data were processed

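Raw counts of reads per gene were deposited for each library, in 1 column for both strands and 1 for each strand. STAR 2.5.1, Trimmomatic 0.33, CASAVA 1.8.2, the tool DESeq2 and the build mm10 appear in the submitters' processing notes. Which gene annotation was counted was not given in the sources used here. Per the labels' protocols, RNA was depleted of rRNA and libraries were strand-specific. Sense counts were used, 98.4% to 98.9% of gene reads. Rows that name no gene held 74.5% to 79.2% of all reads listed and were left out.

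Counts were tested with edgeR 4.0.16 (quasi-likelihood, TMM factors, filterByExpr with minimum count 10) in R 4.3.3 over all genes, with Benjamini-Hochberg adjustment and a threshold of 0.05. CPM used TMM factors; log2 CPM used a prior count of 2. SE is the absolute log2 fold change over the root of F. Alternatives used DESeq2 1.42.0, limma-voom (limma 3.58.1), other scalings, trends, filters and each library left out. Read shares were compared by exact permutation. Every replicate pair differed by more than sampling noise (chi-square per degree of freedom 1.28 to 4.39).

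The members, lists, motifs and tests were chosen with earlier results of these data known. Named pathway genes are up to 2 called higher and up to 2 called lower per list with the largest change, 1 of which is not reported here; genes most like a member (3 each, within 1 log2 CPM) are named for the called member with the highest and the lowest fold change. Gene positions and transcript lengths are from GENCODE M21 (GRCm38, the same assembly as mm10). It held lengths for 96.7% of genes tested.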

Additional observations from a re-analysis of the deposited data

Results flagged for a closer look

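Sphk1 and Sgpl1 were flagged because their scaled opposite-strand reads were above every FTY720 library in each LPS library, so that separation is the rule and no finding. Reads on the strand opposite to Sphk1 numbered 2, 2 and 1 with FTY720 and 5, 6 and 4 with LPS, 15 against 5 in all. Its sense reads numbered 106 with LPS and 24 with FTY720. Opposite-strand reads made up 13.3% of the reads of both strands at Sphk1, beside 1.06% to 1.61% of gene reads per library. The share was 9.83% at Sphk2, 16.1% at Spns2 and 84.6% at Sgpp2, which also overlap a gene on the opposite strand. At the other members it was 0.511% to 2.5%, with 2.24% at Asah2 and 2.5% at Acer2, whose reads were few too. GENCODE M21 lists an antisense gene, Gm29292, that overlaps Sphk1. Opposite-strand reads of Sgpl1 numbered 46 with LPS and 31 with FTY720, 0.511% of its reads on both strands. Neither difference was tested.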

How the results depend on the processing

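Sphk1, Sphk2 and Acer2 kept direction and call in all 17 alternatives. The count of members higher, 5 in the main analysis, was 2 with total gene reads alone and 3 with total gene reads without the rRNA-like genes, where 2 members were lower instead of 1; with the expression trend removed 3 were lower. Over all genes tested, 2362 were higher and 2297 lower. With total gene reads alone 766 were higher (22.2% of calls, against 50.7%), with total gene reads without the rRNA-like genes 1073 were higher and 4981 lower (17.7%), and DESeq2 called 1529 lower. Upper-quartile factors gave 38.8% of calls higher.

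With total gene reads alone Sgpl1 stood at 0.49, Acer3 at 0.47 and Asah1 at -0.00835, none of them called, and without the rRNA-like genes in the total Acer3 stood at 0.38 and Asah1 at -0.0888, not called, and Sgpp1 at -0.68, called. With the expression trend removed Sgpl1 stood at -0.19 and Asah1 at -0.40, both called lower, Spns2 at 0.12 and Asah2 at 0.88, called. Asah1 was not called with upper-quartile factors (0.22) or with length and GC trends removed (0.18), where Spns2 stood at 0.0067. The cause was not tested.

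Leaving out 1 library gave 4 to 6 members higher, 2043 to 2722 genes higher and 1700 to 2495 lower. The log2 fold changes ranged over 0.29 to 0.52 for Asah1, 0.48 to 0.99 for Asah2, -0.37 to 0.0326 for Sgpp1 and -0.41 to 0.23 for Spns2; Spns2 was 0.10 without FTY720 replicate 1 and 0.23 without LPS replicate 2, and Sgpp1 0.0326 without FTY720 replicate 3. Per kilobase of transcript the difference in Sphk1 share was 52.8 percentage points and in Acer2 share 3.39, against 48.1 and 4.59.

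With the replicate number as a block, a replicate block for which the labels give no shared source, 5 members were higher and 1 lower, 2292 genes were higher and 2171 lower, and Sphk1 stood at 2.67; it changed no call on a member. Same-numbered libraries did not deviate together (correlations across genes of -0.02, -0.03 and -0.07). Depth limits the genes with few reads: in the FTY720 group Sgpp2 had 2, Acer2 17, Sphk1 24 and Spns2 45.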
